A study of Mus musculus with 18 samples.

Results

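The genes described here are 33 nuclear genes for the enzymes of oxidative phosphorylation and of the tricarboxylic acid (TCA) cycle. They are named members below and were listed by symbol: 10 encode subunits or partners of complex I, 4 of complex II, 5 of complex III, 5 of complex IV, 2 of complex V and 7 TCA cycle enzymes. Each was found through probe sets that carry 1 gene symbol, all 33 of 33 had one, and they make up 33 of the 19752 genes so named on the array. Where a gene had 2 probe sets, the brighter on average was taken. All 33 passed the filter on low values that left 15365 genes for testing.

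The series holds 18 single-colour arrays of mouse cells, 9 from BRAFV600E mice (BRAF below) and 9 from littermate controls (WT below), in 8 groups of genotype by population. Every animal, control or not, carries the floxed BRAFV600E(CA-flox) allele; the BRAF groups are CD11c-Cre(positive) and the WT groups are CD11c-Cre(neg). CD11c-Cre acts in cells that express the integrin CD11c, which dendritic cells carry, so cells of a sorted fraction that never expressed CD11c would keep the allele silent. Dendritic cells grown from marrow (BMDC) came from untreated cultures of mice aged 5 weeks, were sorted live on CD11c and CD11b, and have 3 arrays per genotype. Organ cells came from unmanipulated mice aged 14 weeks, with 2 arrays per genotype for each of liver CD11b+, for CD11b+ from lung and for CD103+ from lung, and the labels give no further gate. BMDC therefore differ from the organ cells in culture and in age as well as in origin. The labels number the replicates without saying that they are separate animals or cultures, so a p-value covers the spread of the arrays at hand and that spread may be technical.

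The TCA cycle oxidises the acetyl group of acetyl-CoA in the mitochondrial matrix and passes the electrons to NADH and, through succinate dehydrogenase, to ubiquinone. Complexes I, III and IV carry the electrons on to oxygen and pump protons across the inner membrane; complex V uses the returning protons to make ATP, and complex II is the only enzyme that belongs to both pathways. In dendritic cells and macrophages the balance between this pathway and glycolysis is known to shift with activation, and succinate and itaconate, products of the cycle and of a branch from it, act as signals. The subunits encoded in mitochondrial DNA are not among the members: 0 of the 13 could be named on this array with the table used. As these are bulk samples, fewer cells of a type and less RNA per cell cannot be told apart.

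Subunits of these complexes are encoded in many places in the nuclear genome, and the factors NRF1 and the ETS-family protein GABP are known for binding upstream of several of them. Because 4 members, Sdhd, Cox5b, Ndufs1 and Cox5a, separated BMDC from the organ cells in the test described below, the 250 bases before the RefSeq start are given for the 3 of these that have an entry in the promoter table (RefSeq, GRCm38.p6), read 5′ to 3′ on the gene's strand. Sdhd, the small membrane anchor of complex II, lies on the minus strand, with these bases at chr9:50603850-50604099. Cox5b, a nuclear subunit of complex IV, lies on the plus strand (chr1:36691237-36691486), as does Cox5a, another nuclear subunit of complex IV (chr9:57520982-57521231). Capitals mark matches to the NRF1 motif, taken as GCGC, any 2 bases and GCGC again, and to the ETS motif CCGGAAG, each searched on both strands.
Sdhd: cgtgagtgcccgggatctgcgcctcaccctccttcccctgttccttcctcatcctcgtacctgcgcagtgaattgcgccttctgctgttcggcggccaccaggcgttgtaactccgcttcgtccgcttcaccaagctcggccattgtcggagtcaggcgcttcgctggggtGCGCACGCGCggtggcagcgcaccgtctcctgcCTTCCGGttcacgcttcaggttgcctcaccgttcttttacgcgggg
Cox5b: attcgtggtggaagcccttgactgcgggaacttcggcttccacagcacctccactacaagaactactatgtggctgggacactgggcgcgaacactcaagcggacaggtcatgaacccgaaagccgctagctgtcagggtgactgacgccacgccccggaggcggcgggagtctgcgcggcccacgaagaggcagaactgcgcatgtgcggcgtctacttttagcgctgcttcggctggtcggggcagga
Cox5a: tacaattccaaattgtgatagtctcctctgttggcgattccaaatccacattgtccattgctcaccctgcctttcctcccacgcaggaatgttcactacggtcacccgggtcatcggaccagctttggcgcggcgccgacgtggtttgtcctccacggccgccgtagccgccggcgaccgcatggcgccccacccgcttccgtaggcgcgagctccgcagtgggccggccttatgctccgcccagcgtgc
Sdhd held 1 NRF1 match, 79 to 70 bases before the start, and 1 ETS match on the opposite strand, 46 to 40 bases before it; these do not overlap. The other pair held neither. Of the 25 members with a promoter entry, 3 held the NRF1 motif (Ndufv2, Sdha and Sdhd), against 4.98% of all 32851 promoters in the table. The ETS motif was found in 2 members (Ndufs3 and Sdhd), against 6.91% of all promoters. The GC box GGGCGG was found in 12 of the 25, Cox5a among them, against 32.7%, and CCAAT in 9, against 33.8%. A member was counted when any of its entries held the motif, whereas the percentages are over single entries, so the units are unlike. A match describes these letters only.

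Intensities are given as log2, and a level is compared only between arrays and never between genes, since probe sets differ in brightness for reasons other than abundance. The interquartile range of log2 values over all probe sets was 1.9 for BRAF BMDC replicate 2 and 1.92 for replicate 3 of WT liver CD11b+ cells, against 2.41 to 2.99 on the other 16 arrays. These are called the narrow arrays below, and results that rest on them are given with and without them. The array labelled BRAF liver CD11b+ replicate 3 correlated across all genes tested with the 3 WT BMDC arrays (0.928 to 0.932) more than with the other liver arrays (0.868 to 0.925). Whether its label is right was not tested. The liver comparisons of the members are also given without it, but the counts of the highest and lowest population are not. The log2 difference in Braf, BRAF minus WT, lay between -0.12 and 0.32 in the 4 populations and was not called in any, and this signal sums both alleles. Itgax, which encodes CD11c, was between 10.66 and 12.18 on every array, lowest on BRAF BMDC replicate 2. The 9 genes of a list for CD103+ type 1 dendritic cells averaged 11.2 to 11.69 on the 4 lung CD103+ arrays and 7.91 to 8.88 on all others, as the label of those cells states.

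**Figure D1:**
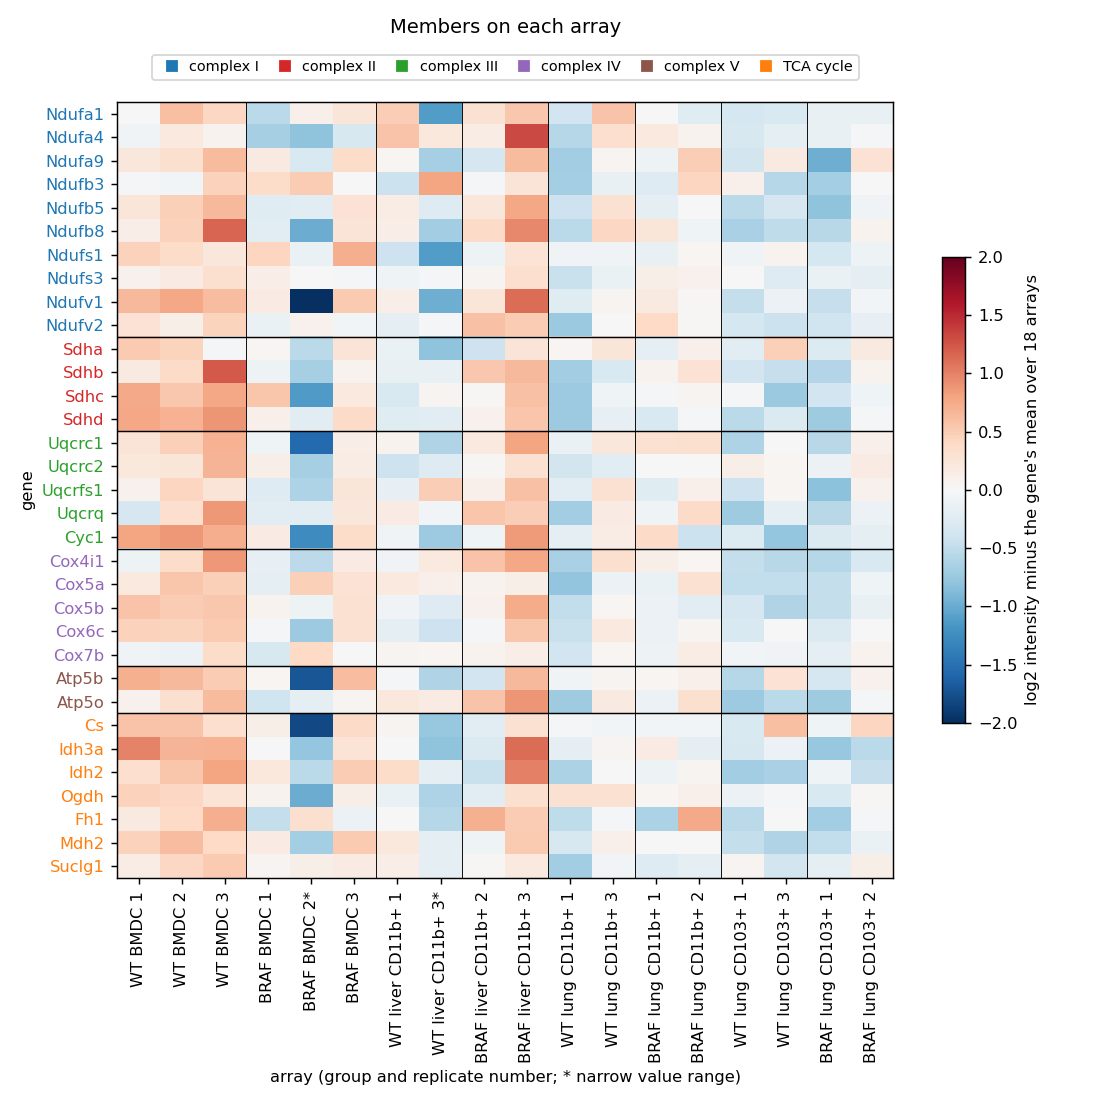
Log2 intensity of each of the 33 members (vertical axis, symbols coloured by complex) on each of the 18 arrays (horizontal axis), as the difference from the gene's own mean over all arrays; red is above that mean, blue below, and colours saturate at 2 log2 units. All 3 WT BMDC arrays and BRAF liver CD11b+ replicate 3 are mostly red, BRAF BMDC replicate 2 is mostly blue with single red cells such as Cox7b, and the lung CD103+ arrays are mostly pale blue.

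As group means, the members were at their highest in WT BMDC and at their lowest in lung CD103+ cells. As the median over the 33 members of the difference from each gene's 18-array mean, the 3 WT BMDC arrays stood at 0.25, 0.44 and 0.53, and the 3 BRAF BMDC arrays at 0.04, -0.53 and 0.25. The liver CD11b+ arrays stood at -0.02 and -0.26 in WT and at 0.07 and 0.56 in BRAF. The lung CD11b+ arrays stood at -0.44 and 0.05 in WT and -0.05 and 0.06 in BRAF, and the lung CD103+ arrays at -0.35 and -0.26 in WT and -0.46 and -0.03 in BRAF. WT BMDC lay above WT arrays of every organ without overlap, while the BRAF BMDC arrays ran from the lowest of all 18 to the level of WT BMDC replicate 1. The lowest value belonged to BRAF BMDC replicate 2 and the highest to BRAF liver CD11b+ replicate 3, on which 33 of 33 members were above their mean.

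By gene, with the genotype means averaged, BMDC had the highest level for 19 of the 33 members, liver CD11b+ cells for 11, lung CD11b+ cells for 2 and lung CD103+ cells for 1. Lung CD103+ cells had the lowest level for 25. Over WT arrays alone, BMDC had the highest level for 31 of 33, and liver CD11b+ cells for the other 2, Ndufa4 and Ndufb3. Without the narrow arrays BMDC were highest for 22 and lung CD103+ cells lowest for 26. The distance from the highest to the lowest population mean ran from 0.15 for Cox7b to 0.96 for Atp5o, a stalk subunit of ATP synthase.

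The test of BMDC against the mean of the 3 organ populations called 4 members, all higher in BMDC: Sdhd, Cox5b, Ndufs1 and Cox5a. That is 4 of 33 called higher and 0 lower, against 11.6% of all genes tested called higher and 7.11% lower, so the share of members is close to that of all genes. Here and below, called means an adjusted p under 0.05 in limma, a linear model fitted across all 15365 genes, with Benjamini-Hochberg adjustment over all of them; errors after a difference are standard errors. By sign, 31 of the 33 differences were positive, with a median of 0.21 against 0.03 over all genes tested. With the arrays scaled to a common interquartile range 22 were positive and 11 negative, with a median of 0.06.

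Sdhd was 10.13, 10.05 and 10.25 on the WT BMDC arrays and 9.46, 9.15 and 9.75 on the BRAF BMDC arrays. On the 12 organ arrays it ran from 8.63 to 9.91, with its highest organ values on the BRAF liver CD11b+ arrays (9.45 and 9.91). All WT BMDC arrays were above every organ array, and the BRAF BMDC arrays overlapped them. The difference, BMDC minus organs, was 0.66 ± 0.14 (adjusted p = 0.00333), and it was called without each array in turn and under every other setting tried.

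Cox5b was 11.11, 11.05 and 11.08 on the WT BMDC arrays, 10.61, 10.45 and 10.85 on the BRAF BMDC arrays and 9.95 to 11.28 on the organ arrays. The top organ value was that of BRAF liver CD11b+ replicate 3, the single organ array to reach the WT BMDC level. Its difference was 0.47 ± 0.12 (adjusted p = 0.0143). It was called without each array in turn, and was lost when the arrays were scaled to a common interquartile range (adjusted p = 0.326).

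Ndufs1, the large iron-sulphur subunit of complex I, was 8.48, 8.38 and 8.25 in WT BMDC and 8.45, 7.88 and 8.74 in BRAF BMDC. The organ arrays ran from 6.9 on the narrow WT liver CD11b+ array to 8.29 on BRAF liver CD11b+ replicate 3. The difference was 0.52 ± 0.14 (adjusted p = 0.0159) and was not called without WT BMDC replicate 1 (adjusted p = 0.052) or BRAF BMDC replicate 3 (0.0568). Without the narrow arrays it was 0.58 ± 0.1 (adjusted p = 0.000919).

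Cox5a was 9.31, 9.66 and 9.59 in WT BMDC, 8.91, 9.58 and 9.4 in BRAF BMDC, and 8.32 to 9.42 on the organ arrays. Its difference of 0.45 ± 0.14 (adjusted p = 0.0303) was the least stable of the 4. It was not called in 7 of the 18 fits that leave out 1 array (those without WT BMDC 2 or 3, BRAF BMDC 2 or 3, WT lung CD11b+ 1, BRAF lung CD11b+ 1 or BRAF lung CD103+ 1; adjusted p = 0.0524 to 0.0919). Without both narrow arrays the adjusted p was 0.0695. It was also not called after quantile normalization (0.125), with a common interquartile range (0.321), with array weights (0.0681) or with trend and robust eBayes (0.0503).

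**Figure D2:**
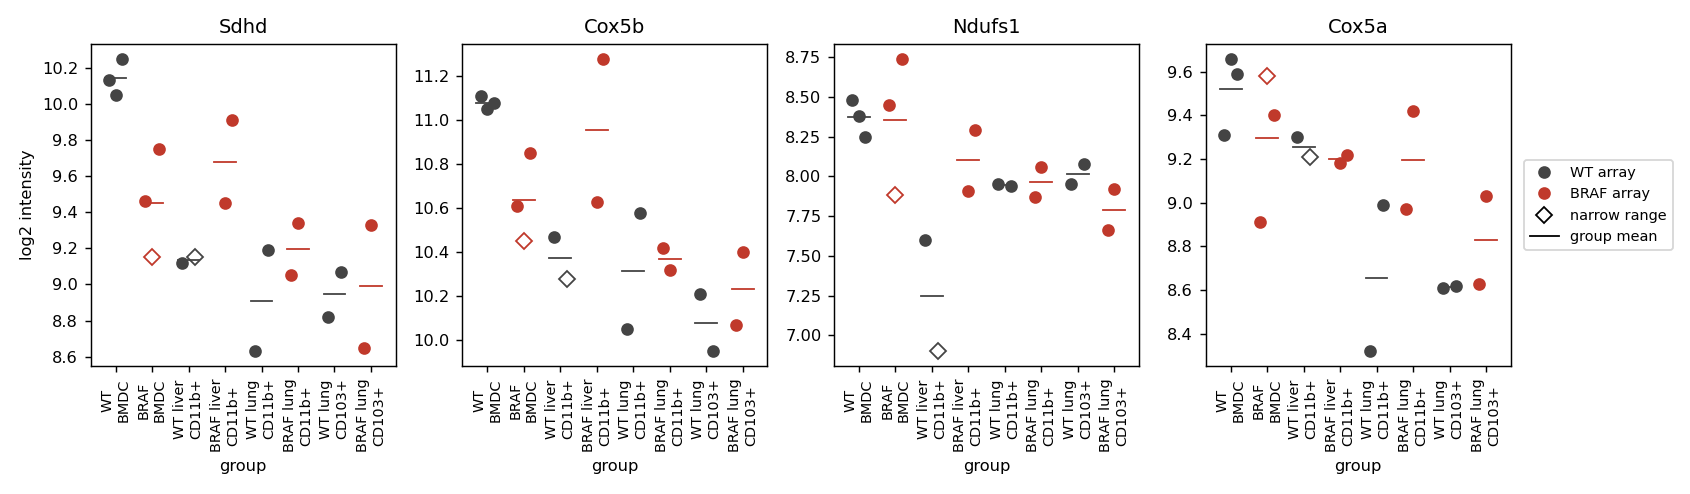
Log2 intensity (vertical axis, a separate scale per gene) of Sdhd, Cox5b, Ndufs1 and Cox5a in the 8 groups (horizontal axis); each point is an array, open diamonds are the narrow arrays, and short lines are group means. The WT BMDC points of Sdhd, 10.05 to 10.25, lie above all organ points, while the BRAF BMDC points of all 4 genes overlap those of the organs.

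The count of members called in this comparison moved with the arrays used. Without the narrow arrays 9 members were called higher (19.1% of all genes tested): Ndufs1, Sdhd, Sdhc, Mdh2, Cox5b, Cyc1, Uqcrc2, Ndufv1 and Idh3a. Without BRAF BMDC replicate 2 alone it was 12 (19.2% of all genes), and without BRAF BMDC replicate 3 it was 2 (8.79% of all genes). Without the array labelled BRAF liver CD11b+ replicate 3 it was 6, in a fit that called 2154 of 15338 genes higher. With array weights 16 were called higher and 1 lower, in a fit that called 27.5% of all genes higher and 14.6% lower. When only WT arrays entered the contrast, 10 members were called higher and 0 lower (10.4% and 5.45% of all genes), with a median of 0.64 over the 33. The largest of these were Sdhd (1.15) and Cyc1 (1.1), the cytochrome c1 of complex III, followed by Idh3a (1.01), the catalytic subunit of the NAD-dependent isocitrate dehydrogenase. Quantile normalization gave 4 higher and 1 lower (11.6% and 9.28% of all genes); the lower one was Ndufa4, first described with complex I and now placed with complex IV. Scaling to a common interquartile range gave 2 higher (Ndufs1 and Sdhd) and 1 lower (Ndufa4), and turned the share of all genes called to 8.97% higher and 8.97% lower.

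By role, the 4 complex II genes had a median difference of 0.35, the 7 TCA cycle genes 0.35, the 5 complex IV genes 0.24, the 10 complex I genes 0.2, the 5 complex III genes 0.16 and the 2 complex V genes 0.17. All 7 TCA cycle genes were positive and none was called; Suclg1, a subunit of succinyl-CoA ligase, came nearest at 0.35 ± 0.12 (adjusted p = 0.0567). Ndufa4 had the lowest difference, -0.4 ± 0.17 (adjusted p = 0.126). Other cell features separated the same arrays: of the 23 proliferation genes 16 were called higher in BMDC, with a median of 1.18, and of the 10 pan dendritic cell genes 8 were called lower, with a median of -1.44. Of 8 alveolar macrophage genes 3 were called higher, and that list averaged 8.93 to 9.72 on the BMDC arrays and 6.66 to 9.08 on the organ arrays. Their part in the members' differences was not tested.

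Of the organ populations, liver CD11b+ and lung CD103+ cells were furthest apart in the members. That pair was compared after the population means had been seen. Of the 33 members 3 were called higher in liver in limma and 0 lower, against 3.55% of all genes tested called higher and 7.9% lower. By sign 28 of 33 were higher in liver, with a median of 0.43 (0.03 over all genes tested). Without BRAF liver CD11b+ replicate 3 it was 25 of 33, with a median of 0.27 (-0.01 over all genes). Atp5o was 9.7 and 9.66 on the WT and 10.07 and 10.38 on the BRAF liver arrays, and 8.77, 8.96, 8.78 and 9.46 on the lung CD103+ arrays, so the populations did not overlap. The difference was 0.96 ± 0.22 (adjusted p = 0.00966). It was called without each array in turn, and was not called with array weights (0.0959), with WT arrays only (0.113) or with the replicate number as a block (0.0599).

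Cox4i1, a nuclear subunit of complex IV, was 9.15 and 9.42 on the WT and 9.79 and 9.99 on the BRAF liver arrays, and 8.65 to 8.91 on the lung CD103+ arrays. These did not overlap, and the difference was 0.84 ± 0.23 (adjusted p = 0.03). Its call was lost in 6 of the 8 fits that leave out 1 of these arrays (adjusted p up to 0.11) and without the narrow arrays (0.0663). Ndufv2, a small iron-sulphur subunit of complex I, differed by 0.55 ± 0.17 (adjusted p = 0.0449) and was not called under most alternatives, a common interquartile range (0.122) and quantile normalization (0.0545) among them. The count of members called was 10 under each of those scalings, 1 to 5 without each array in turn, and 0 with array weights, with WT arrays only or with the block. Of all 15365 genes tested, 839 were called higher in liver after quantile normalization and 704 with a common interquartile range. Without each array in turn it was 258 to 895. With array weights it was 314, with WT arrays only 306, and with the block 497 of 15153 genes. The CD103+ and macrophage marker lists also separated these populations: 8 of 9 genes of the first were called lower in liver and 6 of 10 of the second higher. Their part in the result was not tested.

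In both comparisons with lung CD11b+ cells 0 of 33 members were called in limma. For liver minus lung CD11b+ cells, 26 differences were positive and 7 negative, with a median of 0.19 (0.02 over all genes tested, of which 2.12% were called). An unadjusted p under 0.05 was found for 2 members and for 3128 of all 15365 genes. The median of the members was 0.09 to 0.38 without each array in turn, and 0.09 without BRAF liver CD11b+ replicate 3. It was 0.06 with WT arrays only and 0.04 with the replicate number as a block. The 2 members were Ndufa4 (0.56 ± 0.24, adjusted p = 0.212) and Atp5o (0.54 ± 0.22, adjusted p = 0.186). Ndufa4 was called when BRAF liver CD11b+ replicate 2 was left out (0.85, adjusted p = 0.0479). For lung CD103+ minus lung CD11b+ cells, 29 of 33 were negative with a median of -0.2 (0.03 over all genes, 5.64% called). An unadjusted p under 0.05 was found for 0 members and for 2130 of all 15365 genes. Without WT lung CD11b+ replicate 3, 20 of 33 members were negative with a median of -0.07. Without WT lung CD11b+ replicate 1 the median was -0.35, and without BRAF lung CD103+ replicate 1 it was -0.1. The lowest were Uqcrc1, a core subunit of complex III (-0.45 ± 0.32), and Cox4i1 (-0.43 ± 0.23), both within the spread of the arrays.

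Between the genotypes, 0 of 33 members were called in any population in limma. The median difference, BRAF minus WT, was -0.52 in BMDC, 0.5 in liver CD11b+ cells, 0.2 in lung CD11b+ cells and 0.05 in lung CD103+ cells. Over all genes tested the medians were 0.0, 0.08, 0.0 and -0.08, and 0.521%, 0.215%, 0.338% and 0.0846% were called. The liver direction did not hold under every scaling: the median of the members was 0.19 after quantile normalization and -0.00 after scaling to a common interquartile range, with 16 members positive and 17 negative. The other 3 kept their sign under each scaling tried.

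**Figure D3:**
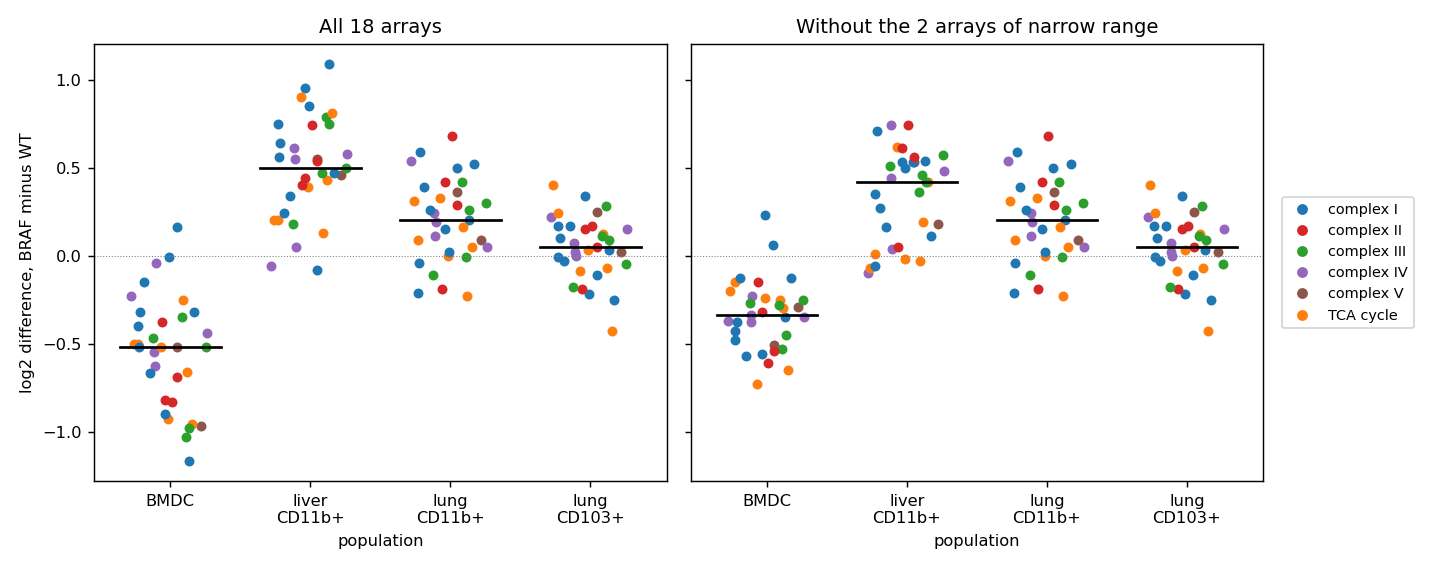
Log2 difference, BRAF minus WT (vertical axis), of each member in the 4 populations (horizontal axis), over all 18 arrays on the left and without the narrow arrays on the right; points are genes coloured by complex, spread sideways for visibility, and bars are medians. The BMDC points lie between -1.17 and 0.16 with all arrays and between -0.73 and 0.23 without the narrow ones, and no point passed the test.

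In BMDC, 32 of the 33 members were lower in BRAF cells by sign and 14 had an unadjusted p under 0.05, with 0.412 as the smallest adjusted p. Of all 15365 genes tested, 1022 had an unadjusted p under 0.05. On 13 members every BRAF array lay below every WT array, against 9.08% of all genes tested, and on 0 did every BRAF array lie above (6.99% of all genes). Of the 6 roles, complex II had the lowest median with complex V next (-0.75 and -0.74) and complex I the one nearest 0 (-0.36). Without the narrow BRAF array 31 of 33 were still negative and the median was -0.34. In that fit 2 members had an unadjusted p under 0.05, as did 727 of all 15279 genes, a similar share. Non-overlap over all genes was not counted without that array, so no such count is given.

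Sdhb, the iron-sulphur subunit of succinate dehydrogenase, had the smallest p in BMDC. It was 9.84, 10.04 and 10.88 on the WT arrays and 9.55, 8.99 and 9.73 on the BRAF arrays, which do not overlap. The difference was -0.83 ± 0.27 (adjusted p = 0.412), and -0.61 ± 0.28 without the narrow array; here and below such values come from the fit that leaves out both narrow arrays.

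Sdhd, with the BMDC values given above, also did not overlap and had a difference of -0.69 ± 0.23 (adjusted p = 0.424), or -0.54 ± 0.24 without the narrow array. Idh3a was 9.36, 9.05 and 9.07 in WT and 8.36, 7.59 and 8.65 in BRAF BMDC. All 3 BRAF arrays of it were below all 3 WT arrays, and the difference was -0.96 ± 0.33 (adjusted p = 0.511). Without the narrow array it was -0.65 ± 0.31.

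The largest difference in BMDC, in Ndufv1, rested on 1 array. This gene encodes the subunit of complex I that binds NADH. Its levels were 9.45, 9.58 and 9.41 in WT and 8.96, 6.66 and 9.32 in BRAF BMDC, with the middle BRAF value far below the other two. The difference of -1.17 ± 0.51 became -0.35 ± 0.24 without that array.

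When limma weighted the arrays by their scatter, 12 members were called lower in BRAF BMDC and 0 higher. Weights ran from 0.11 for BRAF BMDC replicate 2 to 6.02 for WT BMDC replicate 2. BRAF BMDC replicates 1 and 3 had weights of 5.39 and 1.7, so the BRAF BMDC mean rested mostly on replicate 1. The arrays of each organ group shared a weight, such as 0.37 for WT liver CD11b+, the narrow array included. In that fit 4.91% of all genes were called lower and 5.87% higher. The 12 were Idh3a (-0.75, adjusted p = 0.00312), Sdhd (-0.58, 0.00525), Cyc1, Ndufa4, Fh1, Cox5b, Ogdh, Cox6c, Ndufb5, Atp5o, Uqcrc1 and Cox5a. The other settings tried called 0 members in BMDC.

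The proliferation genes moved the same way by sign in BMDC, while the marker lists of cell types went in both directions. The 23 genes of a proliferation list were all lower in BRAF cells with 0 called, the list's array medians being 0.95 to 1.11 in WT and 0.02 to 0.86 in BRAF BMDC. The 10 genes of a pan dendritic cell list averaged 9.58 to 9.7 in WT and 8.6 to 9.58 in BRAF BMDC, with 9 to 10 and 8 to 10 of them above the 30th percentile of the array. The 10 macrophage genes averaged 10.68 to 10.92 in WT and 9.69 to 10.68 in BRAF, and all 10 were above that percentile on every BMDC array. Of 16 marker lists of cell types 3 did not overlap between the genotypes, 2 higher and 1 lower in BRAF cells. Of all single genes tested, 6.99% lay above and 9.08% below without overlap. A list mean and a single gene are unlike units. The 8 alveolar macrophage genes averaged 9.64 to 9.72 in WT and 8.93 to 9.27 in BRAF BMDC, the 9 CD103+ type 1 dendritic cell genes 7.91 to 8.03 and 8.21 to 8.27, and the 8 endothelial genes 5.94 to 5.98 and 6.01 to 6.23. Their part in the result was not tested.

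In liver CD11b+ cells, 31 of the 33 members were higher in BRAF cells by sign on the deposited scale, and 5 had an unadjusted p under 0.05. So did 2170 of all 15365 genes tested, which is close to the share of the members. On 17 members both BRAF arrays lay above both WT arrays, against 22.7% of all genes tested, and on 0 below (15.8%). Without the narrow WT array 28 were positive with a median of 0.42, and WT is then 1 array. Without BRAF replicate 3 the median was 0.25 with 25 positive, and without BRAF replicate 2 it was 0.77.

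Ndufs1 had the smallest p in liver. It was 7.6 and 6.9 in WT and 7.91 and 8.29 in BRAF cells, a difference of 0.85 ± 0.28 (adjusted p = 0.23), or 0.5 ± 0.21 without the narrow array. Ndufv2 was 10.18 and 10.33 in WT and 10.94 and 10.86 in BRAF cells (0.64 ± 0.24, adjusted p = 0.274); scaled to a common interquartile range its difference was -0.03.

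Both genes were higher on each BRAF array than on each WT array. Ndufv1 had the largest difference, 1.09 ± 0.62 (adjusted p = 0.419), from 8.93 and 7.83 in WT to 9.04 and 9.91 in BRAF cells, and 0.54 ± 0.32 without the narrow array. Its WT arrays lay as far from each other as the genotype means did. Without BRAF replicate 3 the differences were 0.66 in Ndufs1, 0.68 in Ndufv2 and 0.66 in Ndufv1.

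BRAF liver CD11b+ replicate 3 stood apart from replicate 2. It was the highest of all 18 arrays for 11 of the 33 members, Ndufa4, Ndufv1 and Idh3a among them. Its proliferation list median was 1.46, with 23 of 23 genes above their mean, against -1.15 on BRAF replicate 2 and -0.55 and -0.93 on the WT liver arrays. Replicate 2 correlated with the WT BMDC arrays at 0.884 to 0.901. Of the 16 marker lists 9 did not overlap between the genotypes in liver, 2 of them higher in BRAF cells. Of all single genes tested, 22.7% lay above and 15.8% below without overlap. The 6 monocyte genes averaged 7.98 to 9.2 in WT and 9.24 to 9.77 in BRAF cells, and the 11 neutrophil genes 6.37 to 6.55 and 6.66 to 7.49. Lower in BRAF cells were the T cell list (6.69 to 6.75 in WT, 6.07 to 6.18 in BRAF), the B cell list (6.43 to 6.52, 6.08 to 6.13) and the CD103+ type 1 dendritic cell list (8.62 to 8.63, 7.96 to 8.38), with those for NK cells, mast cells and other granulocytes, lung epithelium and endothelium. The 8 hepatocyte genes averaged 7.05 to 8.53 on the WT and 6.89 to 8.48 on the BRAF liver arrays, with 6 to 8 and 6 to 7 of them above the 30th percentile of the array. The part of these differences in the liver result was not tested.

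In lung CD11b+ cells, 26 of 33 members were positive by sign, 1 had an unadjusted p under 0.05 and the smallest adjusted p was 0.568. Of all 15365 genes, 1031 had an unadjusted p under 0.05. Every BRAF array lay above every WT array for 6 members (21.6% of all genes) and below for 1 (24.8%). Without WT replicate 1 the median was -0.01, with 15 positive and 18 negative; that array was the lowest of all 18 for 8 members. Ndufv2 was 9.62 and 10.36 in WT and 10.76 and 10.38 in BRAF cells, 0.59 ± 0.24 (adjusted p = 0.568).

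Sdhb had the largest difference in this population. It was 8.97 and 9.35 in WT and 9.73 and 9.95 in BRAF cells, so the genotypes did not overlap, and the difference was 0.68 ± 0.33 (adjusted p = 0.779). Of the 16 marker lists 11 did not overlap between the genotypes here, 5 higher and 6 lower in BRAF cells. Of all single genes tested, 21.6% lay above and 24.8% below without overlap. The 10 pan dendritic cell genes averaged 11.14 to 11.17 in WT and 10.2 to 10.76 in BRAF cells, and the 8 CD11b+ type 2 dendritic cell genes 10.5 to 10.62 and 9.49 to 10.16. The 8 alveolar macrophage genes averaged 7.37 to 7.62 and 7.89 to 9.08, and the 6 monocyte genes 9.17 to 9.55 and 9.69 to 10.1. Their part in the members' values was not tested.

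In lung CD103+ cells 21 of 33 were positive and 0 had an unadjusted p under 0.05 (655 of all 15365 genes). Without overlap, 4 members lay above (9.16% of all genes) and 2 below (19.3%). Without BRAF replicate 2 the direction turned, with 9 positive, 24 negative and a median of -0.14. The largest difference there was in Idh3a, 8.05 and 8.26 in WT against 7.62 and 7.83 in BRAF cells (-0.43 ± 0.41, adjusted p = 1.0). The 10 macrophage genes averaged 7.51 to 8.87 on the WT and 9.45 to 10.75 on the BRAF lung CD103+ arrays, with 8 to 10 and 10 of them above the 30th percentile. The monocyte list (7.31 to 8.72 in WT, 9.21 to 10.09 in BRAF) and the neutrophil list (5.55 to 5.97, 6.01 to 6.22) were the others of the 16 that did not overlap, and the part of these in the members' values was not tested.

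On the deposited scale the sign of the genotype difference was negative in BMDC and positive in liver for most members. The F test of whether the genotype difference varied among the 4 populations called 0 of 33 members (0.124% of all genes); the smallest adjusted p was 0.339, for Sdhb. For the mean genotype difference of the 4 populations, 0 were called (0.989% of all genes), and the median was 0.05 with 26 positive. An unadjusted p under 0.05 was found for 1 member and for 1439 of all 15365 genes.

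Most members were lower on the narrow arrays than on the other arrays of the same group, by amounts that differed from gene to gene. On BRAF BMDC replicate 2, relative to the mean of replicates 1 and 3, 26 members were lower and 7 higher, from -2.47 to 0.62, with a median of -0.61 (-0.09 over all genes tested). Of the members 9 of 33 were lower by over 1 log2 unit, as were 15.2% of all genes tested. Ndufv1 was lowest relative to its group, followed by Cs, the citrate synthase gene, which was 8.29 there and 10.21 and 10.48 on the other BRAF BMDC arrays.

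Atp5b, the catalytic beta subunit of ATP synthase, was 9.98 there against 11.73 and 12.3. Cox7b, a small subunit of complex IV, was 12.56, its highest value on any of the 18 arrays. That array was the lowest of all 18 for 12 members and the highest for Cox7b alone. On WT liver CD11b+ replicate 3, relative to replicate 1, 25 members were lower and 8 higher, with a median of -0.36 (-0.02 over all genes), from -1.6 for Ndufa1 to 1.22 for Ndufb3, 2 accessory subunits of complex I.

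**Figure D4:**
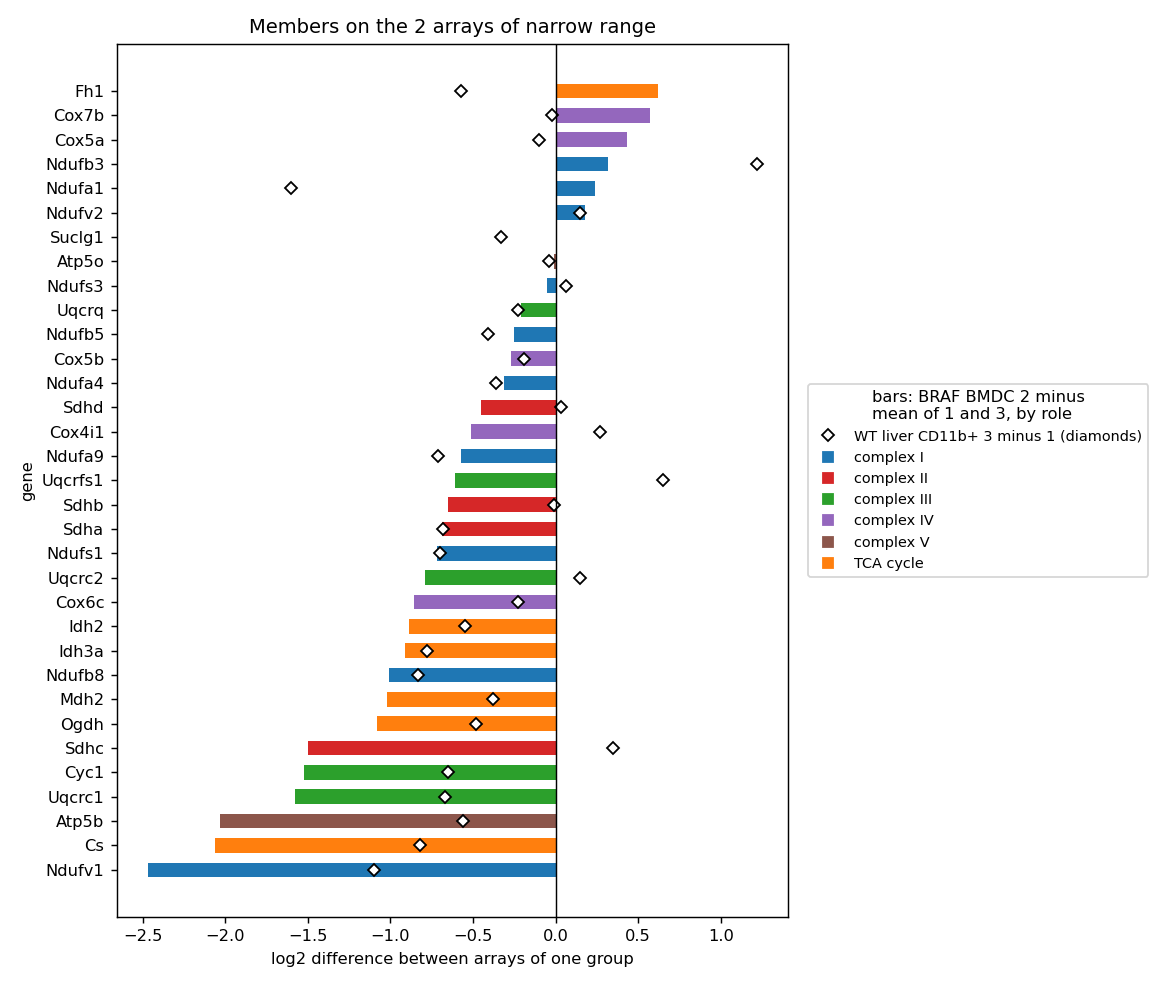
Log2 difference of each member (vertical axis) on the narrow array of a group from the other arrays of that group (horizontal axis); bars are BRAF BMDC replicate 2 minus the mean of replicates 1 and 3, coloured by complex, and diamonds are WT liver CD11b+ replicate 3 minus replicate 1. Bars run from -2.47 for Ndufv1 to 0.62 for Fh1. Within complex I they run from -2.47 for Ndufv1 to 0.32 for Ndufb3, so its members do not share 1 shift.

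Across the 18 arrays the members moved largely together. The correlation of each member with the median of the other 32 had a median of 0.77, from 0.26 to 0.93, and was highest for Cox6c (0.93), Ndufb8 (0.92) and Ndufb5 (0.91). After removal of group means it was 0.73, and without the narrow arrays 0.71 over 16 arrays. These arrays share their groups and scaling, so the values are descriptive. The spread between replicates, pooled over groups, was smallest for Ndufs3 (0.13) and largest for Ndufv1 (0.73).

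Other genes of the mitochondrion and of glycolysis, from lists fixed with the members, were also compared between BMDC and the organ populations. Of further respiratory chain genes, 4 of 25 complex I subunits, 1 of 10 complex III and IV subunits with cytochrome c, and 2 of 14 complex V subunits were called higher in BMDC and 0 lower. For these and the following lists, 11.6% of all genes tested were called higher. Ndufv3 was higher by 0.56 ± 0.15 (adjusted p = 0.0178), Cox6a1 by 0.69 ± 0.2 (0.0244) and Atp5j by 0.51 ± 0.12 (0.00783). Scaling to a common interquartile range ended all 3 of these calls (adjusted p = 0.23, 0.126 and 0.415), and quantile normalization those of Ndufv3 (0.168) and Cox6a1 (0.0536). Cox6a1 was also not called without the narrow arrays (0.0712) or with array weights (0.104). Among the fits that leave out 1 array, Ndufv3 was not called without WT BMDC replicate 3 (0.0653), nor Cox6a1 without WT BMDC 2 or 3 or BRAF BMDC 2 or 3 (0.0514 to 0.0829). Of assembly factors 8 of 34 were called higher, Ndufaf1 (0.53 ± 0.14) with the smallest p, and of mitochondrial ribosomal proteins 8 of 69, which is the share of all genes; Mrpl49 (0.77 ± 0.14) and Mrpl39 (0.74 ± 0.13) were among them. Of the other TCA cycle genes 0 of 7 were called and 3 had an unadjusted p under 0.05, as did 4490 of all 15365 genes.

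Glycolysis genes separated BMDC from the organ cells by more than the members did. Of 17 tested, 14 were called higher in BMDC and 1 lower, with a median of 0.92. Pgk1, phosphoglycerate kinase, was higher by 1.82 ± 0.16 (adjusted p = 1.38e-06), Pgam1 by 1.45 ± 0.18 and Tpi1 by 1.44 ± 0.25. Ldha, which makes lactate, was higher by 1.12 ± 0.26 (adjusted p = 0.00646) and the glucose transporter gene Slc2a1 by 1.29 ± 0.28 (0.00378). The difference between the lists was not tested.

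**Figure D5:**
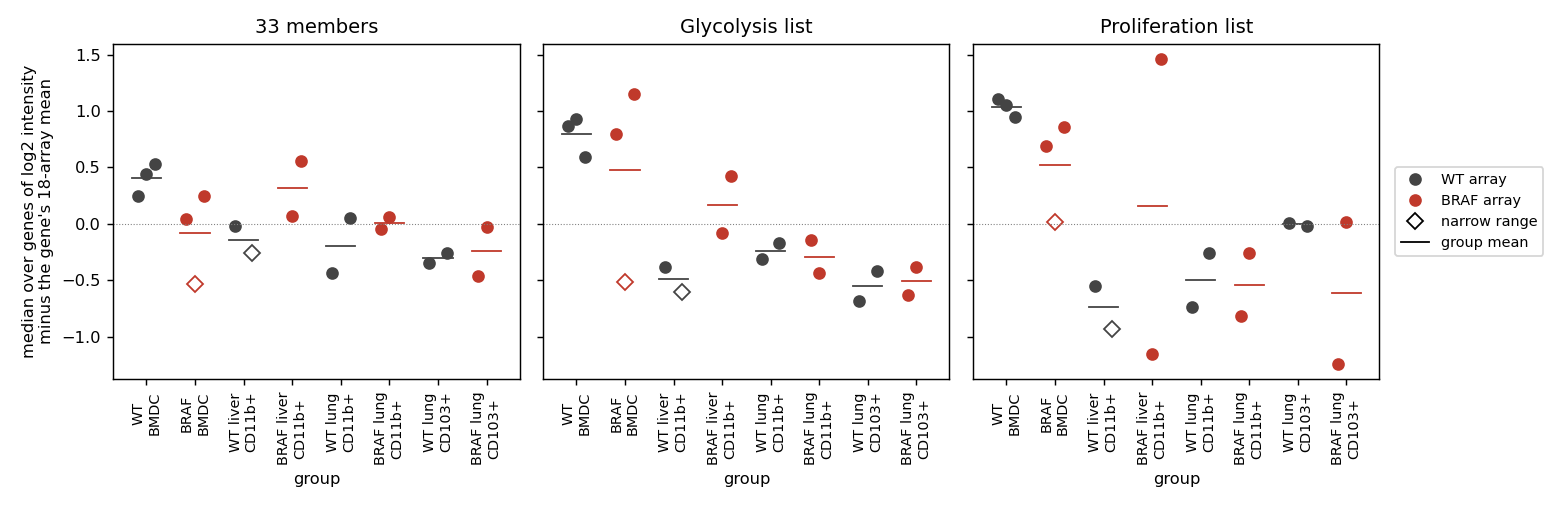
Median over the genes of a list of the log2 difference from each gene's 18-array mean (vertical axis), for the 33 members, 17 glycolysis genes and 23 proliferation genes in the 8 groups (horizontal axis); points are arrays, open diamonds the narrow arrays and short lines group means. WT BMDC stand at 0.25 to 0.53 for the members and at 0.95 to 1.11 for proliferation, and BRAF liver CD11b+ replicate 3 stands at 0.56 and 1.46.

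Genes at the entry and exits of the cycle also differed. Pdk1 and Pdk3, kinases that inhibit pyruvate dehydrogenase, were higher in BMDC by 1.25 ± 0.21 (adjusted p = 0.000527) and 0.62 ± 0.15 (0.0104), as was Dlat (0.5 ± 0.11), a core subunit of that complex; 3 of 10 genes of the list were called. Acod1, which makes itaconate from a TCA cycle intermediate, was higher in BMDC by 1.04 ± 0.17 (adjusted p = 0.000484). It was also called higher in liver CD11b+ than in lung CD103+ cells. That difference was 1.68 to 2.19 without each array in turn, and the call was lost in 0 of these 8 fits. It was lower in lung CD103+ than in lung CD11b+ cells, by a log2 difference of -1.16 ± 0.24 (adjusted p = 0.00805); that call was lost without WT lung CD103+ replicate 3 (0.0525) or BRAF lung CD11b+ replicate 1 (0.0537), and with WT arrays only (-0.85, 0.308). Of 11 mitochondrial carriers 5 were called higher in BMDC, with Vdac1 (0.89 ± 0.15) and the citrate carrier gene Slc25a1 (0.83 ± 0.16) among them, and of 15 fatty acid oxidation genes 4, with Hadh (0.8 ± 0.2) and Etfa (0.51 ± 0.11; adjusted p = 0.0511 with a common interquartile range). The matrix superoxide dismutase gene Sod2 was higher by 0.83 ± 0.1 (adjusted p = 3.46e-05), 1 of 2 called among 7 redox genes.

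Of 16 regulators of mitochondrial genes tested, 2 were called in this comparison, both higher in BMDC. Ppargc1b, a coactivator of nuclear genes for mitochondrial proteins, differed by 0.75 ± 0.11 (adjusted p = 0.0002) and Hif1a, the oxygen-sensitive transcription factor, by 0.74 ± 0.12 (0.000473). Scaled to a common interquartile range, Hif1a was not called (0.0605). Tfam (0.0 ± 0.23), Nrf1 (-0.1 ± 0.12), Gabpa (0.17 ± 0.12), Esrra (0.02 ± 0.1) and Myc (0.12 ± 0.14) were not called. Ppargc1a, the better known relative of Ppargc1b, was between 4.79 and 5.74 on all arrays and did not pass the filter.

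In the genotype comparisons limma called 0 genes of these mitochondrial, glycolysis and proliferation lists. Ppargc1b came closest, in BMDC: it was 8.1, 8.09 and 8.03 on the WT arrays and 7.41, 6.9 and 7.34 on the BRAF arrays. The BRAF arrays were all lower than the WT arrays, and the difference was -0.86 ± 0.18 (adjusted p = 0.0521). It was called after quantile normalization (adjusted p = 0.0486), with trend and robust eBayes (0.0365) and with array weights (3.18e-05). Pdk1, in the mean of the 4 populations, differed by 0.69 ± 0.2 (adjusted p = 0.145).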

How the data were processed

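RNA of 18 samples was hybridised to 1-colour arrays; per the labels' protocols it was total RNA extracted with Trizol and labelled with biotin. The deposited intensity values lie on a linear scale, from 4.9 to 20361.7, with array medians from 93.7 to 113.2. The steps by which the authors reached these intensities are not given in the sources used here. They were turned to log2 without a constant and without further normalization. Of 24922 probe sets, 21425 had 1 gene symbol, 1399 several and 2098 were not listed; 21347 matched the RefSeq gene table by Entrez number and 0 symbols changed. Of the genes, 921 had several probe sets, and the brightest on average was used.

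Genes above the 30th percentile of all probe sets on 2 or more arrays were tested. limma 3.58.1 (R 4.3.3) fitted a mean per group to the 18 arrays together (residual degrees of freedom 10, prior 4.8), because most groups hold 2 arrays. Plots and tables used Python 3.11.15, pandas 2.3.3, numpy 2.4.6 and matplotlib 3.10.9. The fit was tested on simulated data. The number of arrays limits the precision. All 33 members enter the counts and medians, but not every member is named. Array values, or their range, are given for most members called in the main fit. They are also given for the smallest p and the largest genotype difference in each population. Of the other lists, up to 3 called genes each, and fixed regulators, are named. The members and lists were chosen with earlier results of these data known.

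Whether replicate numbers pair arrays was checked across genes, as the correlation of how far arrays of 1 number deviated from their groups. In BMDC r was 0.469, -0.231 and -0.399. The deviations within a group are not independent, and BRAF replicate 2 is a narrow array. This check therefore cannot decide whether the numbers pair WT with BRAF. In lung, CD11b+ and CD103+ arrays of 1 number had r = 0.159 in WT and 0.22 in BRAF, and groups of 2 arrays give only 1 such r per genotype. Alternatives were other scalings (quantile, median centring, a common interquartile range), other filters, robust eBayes with a trend, averaging of probe sets, array weights, only the groups compared, WT arrays only, a replicate block, and leaving out the narrow arrays or each array in turn. The common interquartile range and the comparison of liver CD11b+ with lung CD103+ cells were chosen after seeing the data.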

Additional observations from a re-analysis of the deposited data

How the results depend on the processing

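For the 33 members, 188 counts of calls and 172 medians under an alternative stayed close to those reported, and 19 and 7 moved. In BMDC, array weights called 12 members lower in BRAF cells, and a common interquartile range gave a median of -0.19. In liver CD11b+ cells the genotype median was 0.19 after quantile normalization, -0.00 with a common interquartile range and 0.25 to 0.77 without each array in turn. For BMDC against the organs, array weights called 17 (16 higher, 1 lower), leaving out the narrow arrays 9, WT arrays only 10 (median 0.64), and leaving out each array in turn 2 to 12. Of all genes, the fits without each array in turn called 2184 to 4242. The shares of all genes in the other fits are given above. For liver minus lung CD11b+ cells the count ran from 0 to 1 without each array in turn, and the median was 0.51 with a common interquartile range. For liver CD11b+ minus lung CD103+ cells, 10 members were called after quantile normalization and with a common interquartile range, 1 with arrays centred on their medians, 0 with array weights, the replicate block or WT arrays only (median 0.13), and 1 to 5 without each array in turn. Of all 15365 genes tested, quantile normalization called 839 higher in liver, a common interquartile range 704 and median centring 433. Counts over all genes in the other fits are given with that comparison above. The liver genotype difference reversed with a common interquartile range in Ndufv2 (-0.03) and Cox5b (-0.12). That of Atp5o in lung CD103+ cells reversed without BRAF replicate 2 (range without each array in turn -0.08 to 0.59). The cause was not tested. Among single named genes 1742 values kept their call and sign, 168 lost and 7 gained the call, and 3 reversed.

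With the replicate number as a block, 0 members were called in each genotype comparison. The medians of the members were -0.52 (BMDC), 0.57 (liver), 0.43 (CD11b+ of lung) and 0.17 (CD103+ of lung). For BMDC against the organs 4 members were called, all higher, in a fit that called 1879 of 15365 genes higher. The share of members is close to that of all genes. The block gained the call of Ppargc1b in BMDC (adjusted p = 0.0405). Genotype medians without each array in turn ran from -0.7 to -0.34 in BMDC, -0.01 to 0.44 in lung CD11b+ and -0.14 to 0.24 in lung CD103+ cells.

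With 2 or 3 arrays per group, the standard error of a member's genotype difference was 0.16 to 0.62, with a median of 0.33, so differences of that size were not detectable. Gene names are those of the array's annotation. The array gives RNA signal only, not protein or respiration.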
